A study of Homo sapiens with 6 samples.

Results

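The lysyl oxidases and the collagen hydroxylases are the enzymes that prepare and cross-link collagen. They were followed through LOX, LOXL1, LOXL2, LOXL3 and LOXL4, the prolyl 4-hydroxylase alpha subunits P4HA1 and P4HA2, and the lysyl hydroxylases PLOD1, PLOD2 and PLOD3. Members were taken by gene symbol from the annotation of the array, which gave 9 probe sets, 1 for each of 9 of the 10 genes, among 21448 probe sets and 17687 named genes in all. LOXL2 was not analysed here. HS578T, a human breast carcinoma line, had been stably transfected with EP300 cDNA in the plasmid pcDNA 3 (3 cultures, called EP300 below) or with pcDNA 3 alone (3 cultures, called control). EP300 encodes a lysine acetyltransferase that serves as a transcriptional co-activator. Both groups carried the plasmid backbone and its G418 resistance, both were grown with G418, insulin, glutamine and fetal calf serum, and both were pools of no fewer than 200 clones. The labels do not say if a condition's 3 cultures shared 1 pool, so p-values measure the spread between cultures.

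Collagen chains are modified in the endoplasmic reticulum before they fold. Prolyl 4-hydroxylase makes the 4-hydroxyproline that keeps the triple helix stable at body temperature. Its alpha subunit is P4HA1, P4HA2 or P4HA3, and its beta subunit is P4HB. PLOD enzymes hydroxylate lysines, which sets the sites for sugar attachment and the chemistry of later cross-links. After secretion, the copper enzymes of the LOX family oxidise lysine and hydroxylysine side chains of collagen and lysines of elastin, and the resulting aldehydes condense into cross-links. The hydroxylases need oxygen, iron, 2-oxoglutarate and ascorbate, and LOX, P4HA1, P4HA2 and PLOD2 are known targets of hypoxia-inducible factors in many cells.

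Values are the authors' normalized array signals, taken as log2, so that a difference of 1 is a doubling. The lower quartile of the arrays lay between 3.47 and 3.50 and the median between 4.46 and 4.50, and the highest value of any probe set was 19.93. No detection calls were used here, so levels near the lower quartile may be background. EP300 transcript itself was not analysed here, since 0 probe sets carried that symbol. The line's mesenchymal markers were measured for 8 of 8 genes, with a mean log2 value over the list of 15.36 to 15.52 on EP300 arrays and 15.57 to 15.58 on control arrays. These ranges do not overlap, but summed on the linear scale the list overlapped, with log2 sums of 20.62 to 20.76 on EP300 arrays and 20.74 to 20.82 on control arrays. Most of its members leaned toward lower values, and the list's median difference was -0.17. Of the 8 differences, 7 were negative and 1 positive, with VIM counted as negative although its value was the same on all 6 arrays. The groups were separated toward lower values for 4 of the 8, against 5.91% of all probe sets. Among them were THY1 at -0.75 and FN1, whose gap was only 0.00088. Toward higher values 1 of the 8 was separated, SNAI2 at 0.71, against 6.3% of all probe sets. The part of these shifts in the results below was not tested. Epithelial markers averaged 4.61 to 4.87 on EP300 arrays and 4.60 to 4.86 on control arrays (8 genes, 3 lower and 5 higher in EP300 cultures, median difference 0.12). These means overlap, but summed on the linear scale the epithelial list did not. Its log2 sums were 10.22 to 10.38 on EP300 arrays and 10.98 to 11.51 on control arrays. Among the epithelial markers, CDH1 read 4.02, 2.81 and 2.92 on EP300 arrays and 3.04, 2.51 and 2.08 on control arrays, around or below the lower quartile. The keratin gene KRT18 was well above it and read 9.82, 10.15 and 10.08 on EP300 arrays, against 11.42, 10.85 and 11.10 on control arrays (difference -1.11 ± 0.23 SE, limma adjusted p = 0.592), while its partner keratin gene KRT8 differed by 0.37 ± 0.24 SE (limma adjusted p = 0.836). Leukocyte markers averaged 4.45 to 4.50 on EP300 arrays and 4.42 to 4.58 on control arrays (5 genes). Endothelial markers averaged 3.23 to 3.51 on EP300 arrays and 3.38 to 3.48 on control arrays (5 genes).

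No member passed limma's test at an adjusted p of 0.05, and neither did any other probe set (0%, or 0 of 21448), while 1399 probe sets (6.52%) had an unadjusted limma p below 0.05. What the data hold for these genes is a set of moderate differences, most of them toward lower values in EP300 cultures. Of the 9 members, 7 had a negative difference, against 49.8% of all probe sets, and the median over members was -0.45 on the log2 scale, while the median over all probe sets was 0.00098. That member median is the difference of LOXL3, whose groups overlap and which was -0.12 without EP300 replicate 1. LOX, LOXL1, P4HA1 and P4HA2 differed by between -0.69 and -0.52, and for each of them all 3 EP300 arrays lay below all 3 control arrays. Such a separation toward lower values was found for 4 of 9 members, and for 5.91% of all probe sets. An unadjusted limma p below 0.05 with a lower EP300 level was reached by the same 4 members, and by 3.07% of all probe sets. Toward higher values, 0 members were separated, against 6.3% of all probe sets, and 0 reached an unadjusted limma p below 0.05, against 3.45%. The count of members at an unadjusted p below 0.05 was 2 without control replicate 2, 2 without control replicate 3, 2 without EP300 replicate 3 and 2 with the replicate numbers as a block. Over the 13 alternative settings LOX and LOXL1 reached it in 13 each, P4HA1 in 8 and P4HA2 in 5. In this culture material fewer cells with a transcript and less transcript per cell cannot be told apart.

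**Figure D1:**
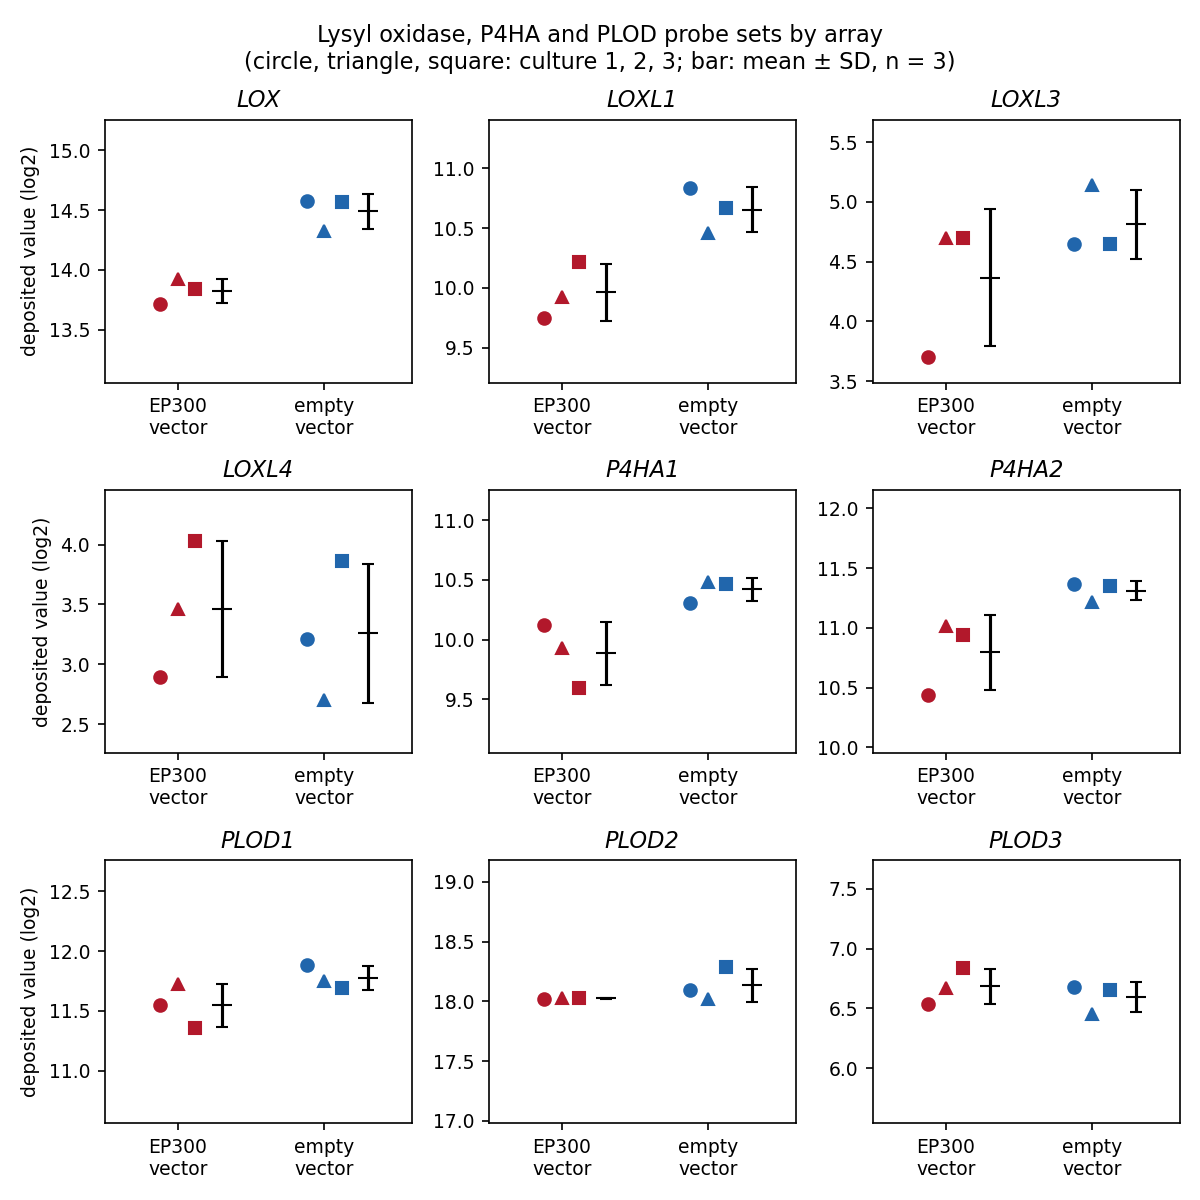
Deposited log2 value of each member on each array, with EP300-vector cultures on the left and empty-vector cultures on the right of each panel, mean ± SD beside them (n = 3), and the same span of the vertical axis in all panels. The EP300 points lie below all control points for LOX, LOXL1, P4HA1 and P4HA2, and the groups overlap in the other 5 panels.

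Hypoxia-inducible factors bind DNA at the core letters ACGTG or GCGTG, and so the promoters of the 4 separated genes, and of PLOD2, are shown with these letters in capitals on either strand. This choice of genes was made after their values were seen. Each run holds the 250 bases before the listed transcription start, 5′ to 3′ on the gene's strand, from RefSeq's GRCh38.p14 table. LOX has 3 listed starts, of which the most upstream is used, and a probe set's value does not say which start was used.
LOX (chr5:122078260-122078509, minus strand): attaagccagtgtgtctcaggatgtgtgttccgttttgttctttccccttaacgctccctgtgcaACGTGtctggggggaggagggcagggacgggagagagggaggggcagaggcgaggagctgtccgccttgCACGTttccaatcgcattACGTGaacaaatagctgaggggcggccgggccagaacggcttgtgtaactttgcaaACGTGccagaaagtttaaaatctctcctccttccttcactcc
P4HA1 (chr10:73096867-73097116, minus strand): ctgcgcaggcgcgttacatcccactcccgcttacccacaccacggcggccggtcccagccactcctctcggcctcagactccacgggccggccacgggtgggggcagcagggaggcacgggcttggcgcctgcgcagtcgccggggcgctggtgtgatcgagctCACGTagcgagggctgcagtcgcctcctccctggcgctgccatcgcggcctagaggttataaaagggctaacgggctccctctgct
LOXL1 (chr15:73926212-73926461, plus strand): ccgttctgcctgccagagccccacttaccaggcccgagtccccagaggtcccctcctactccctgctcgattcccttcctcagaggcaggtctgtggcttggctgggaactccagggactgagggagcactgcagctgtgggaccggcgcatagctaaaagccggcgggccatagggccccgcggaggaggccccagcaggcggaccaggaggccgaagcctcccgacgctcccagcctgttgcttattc
P4HA2 (chr5:132227092-132227341, minus strand): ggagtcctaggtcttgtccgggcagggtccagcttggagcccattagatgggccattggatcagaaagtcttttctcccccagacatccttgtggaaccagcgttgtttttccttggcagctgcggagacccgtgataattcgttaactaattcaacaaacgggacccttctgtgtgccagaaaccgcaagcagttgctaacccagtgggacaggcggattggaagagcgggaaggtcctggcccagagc
PLOD2 (chr3:146161185-146161434, minus strand): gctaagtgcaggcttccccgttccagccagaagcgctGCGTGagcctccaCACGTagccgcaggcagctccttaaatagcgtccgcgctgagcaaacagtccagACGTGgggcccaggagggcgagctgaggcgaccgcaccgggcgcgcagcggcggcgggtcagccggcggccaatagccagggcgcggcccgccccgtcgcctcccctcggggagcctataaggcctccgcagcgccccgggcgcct

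The LOX run holds 4 matches, all of the ACGTG form, at positions -185, -116, -98 and -42 relative to the start, counted by the first base of each match. P4HA1 holds 1, at -86, and PLOD2 holds 3, at -213, -200 and -146. LOXL1 and P4HA2 hold 0, which says only that these letters are not in this window. Over all 35116 promoter windows of the table, 43.2% hold at least 1 match, 7.76% at least 3 and 3.22% at least 4. Of the 9 members, whose starts were all in the table, 4 had a match at their most upstream start (LOX, P4HA1, PLOD1 and PLOD2) and 5 had 0. The shares over all windows count every listed start, so they are not a like-for-like background for this count. At its other start LOXL3 held 1 match, at -246, and the other LOX starts held 2 each. Separated and overlapping genes were found on both sides of the division by most upstream start. LOX and P4HA1 with a match and LOXL1 and P4HA2 without one were separated, while PLOD1 and PLOD2 with matches were not. Whether these matches have a part in the differences was not tested.

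Among the lysyl oxidases, LOX, the founding member of the family, read 13.72, 13.92 and 13.84 in EP300 cultures, against 14.58, 14.32 and 14.57 in control cultures. The highest EP300 value lay 0.40 below the lowest control value, and the spread within each group was small (SD 0.10 in EP300 and 0.14 in control cultures, n = 3 each). The difference was -0.67 ± 0.20 SE, with a 95% interval from -1.12 to -0.21, and the EP300 level was 0.63 times that of control (limma adjusted p = 0.735). The difference stayed between -0.75 and -0.61 whichever array was left out, and the adjusted p lay between 0.264 and 0.866 over the alternative settings. The exact two-sided permutation p was 0.1, which is the smallest that 3 against 3 arrays can give.

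LOXL1, known in mice for the upkeep of elastic fibres, read 9.75, 9.92 and 10.22 in EP300 cultures, against 10.83, 10.46 and 10.66 in control cultures. The groups were 0.24 apart at their nearest values, with EP300 replicate 3 the closest to the controls. Its difference was -0.69 ± 0.22 SE (95% interval -1.19 to -0.19, 0.62 times control, limma adjusted p = 0.738), and it ran from -0.82 to -0.58 with an array left out. LOX and LOXL1 were also the 2 members whose profiles over the 6 arrays were most alike. After subtracting each gene's own mean, their values differed by a root mean square of 0.130. The next pair was PLOD2 and PLOD3 at 0.145, although their differences, -0.11 and 0.09, have opposite signs. Outside the families, 18 of the probe sets compared were nearer to LOX than LOXL1 was.

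LOXL3 and LOXL4, which carry scavenger receptor domains before the catalytic domain, gave no such separation. LOXL3 read 3.71, 4.70 and 4.70 in EP300 cultures, against 4.65, 5.14 and 4.65 in control cultures. EP300 replicate 1 lay far below the other 5 arrays. The LOXL3 difference of -0.45 ± 0.31 SE (95% interval -1.13 to 0.24, limma adjusted p = 0.854) was -0.12 without that array and -0.28 without control replicate 2. LOXL4 read 2.89, 3.46 and 4.03 in EP300 cultures, against 3.21, 2.70 and 3.86 in control cultures. These values straddle the lower quartile of the arrays and overlap widely. The LOXL4 difference of 0.20 ± 0.36 SE had an interval from -0.60 to 1.01 (limma adjusted p = 0.941), and its sign turned without control replicate 2 and without EP300 replicate 3.

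Of the prolyl 4-hydroxylase alpha subunits, P4HA1 and P4HA2 had nearly the same difference. A further alpha subunit gene, P4HA3, is not a member and was named after its values were seen. It read 3.33, 2.93 and 2.76 in EP300 cultures, against 2.90, 2.73 and 3.54 in control cultures. These values lie around or below the lower quartile and overlap, and the P4HA3 difference was -0.05 ± 0.27 SE (limma adjusted p = 0.986). P4HA1, the main alpha subunit of most cells, read 10.12, 9.93 and 9.60 in EP300 cultures, against 10.31, 10.48 and 10.47 in control cultures. The gap between the groups was 0.18, and the control arrays were the more uniform (SD 0.27 in EP300 and 0.097 in control cultures). The difference was -0.54 ± 0.22 SE (95% interval -1.03 to -0.04, 0.69 times control, limma adjusted p = 0.748), and without EP300 replicate 3 it was -0.39. P4HA2, the second alpha subunit, read 10.44, 11.02 and 10.94 in EP300 cultures, against 11.37, 11.22 and 11.35 in control cultures. Here EP300 replicate 1 was the lowest array, whereas for P4HA1 it was the highest of the EP300 arrays. The P4HA2 difference was -0.52 ± 0.23 SE (95% interval -1.03 to -0.004, 0.70 times control, limma adjusted p = 0.765). Without EP300 replicate 1 it was -0.33, a change of more than 1.5 times.

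P4HB, the beta subunit that the alpha subunits need to stay soluble and which also works as a protein disulfide isomerase, read 13.17, 13.10 and 12.71 in EP300 cultures, against 13.50, 13.32 and 13.36 in control cultures. The groups did not overlap, as for P4HA1 and P4HA2, and the difference was -0.40 ± 0.22 SE (limma adjusted p = 0.802). It was -0.26 without EP300 replicate 3.

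The 3 lysyl hydroxylases had a median difference of -0.11. That of the 4 lysyl oxidases was -0.56, and that of P4HA1 and P4HA2 was -0.53. PLOD1, which acts on helical lysines, read 11.55, 11.73 and 11.36 in EP300 cultures, against 11.89, 11.75 and 11.69 in control cultures. EP300 replicate 2 lay inside the control range, and the difference was -0.23 ± 0.21 SE (95% interval -0.70 to 0.24, limma adjusted p = 0.894), or -0.14 without EP300 replicate 3. PLOD2, which hydroxylates the telopeptide lysines that give the stiffer hydroxylysine-derived cross-links, read 18.02, 18.03 and 18.03 in EP300 cultures, against 18.10, 18.02 and 18.29 in control cultures. These values lie close to the top of the scale (19.93), and the 3 EP300 arrays agree within an SD of 0.0035, where the other members had EP300 SDs of 0.10 to 0.57. Whether the scale is compressed at this level was not tested. The PLOD2 difference of -0.11 ± 0.20 SE had an interval from -0.56 to 0.34 (limma adjusted p = 0.943), and it was -0.03 without control replicate 3. PLOD3, which also carries glycosyltransferase activity, read 6.54, 6.67 and 6.84 in EP300 cultures, against 6.68, 6.45 and 6.65 in control cultures. Its difference was 0.09 ± 0.21 SE (95% interval -0.37 to 0.55, limma adjusted p = 0.959), and 0.011 without EP300 replicate 3. Whether the PLOD genes differ from the LOX and P4HA genes in their response was not tested, and the intervals of PLOD1 and PLOD2 include the -0.52 of P4HA2.

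**Figure D2:**
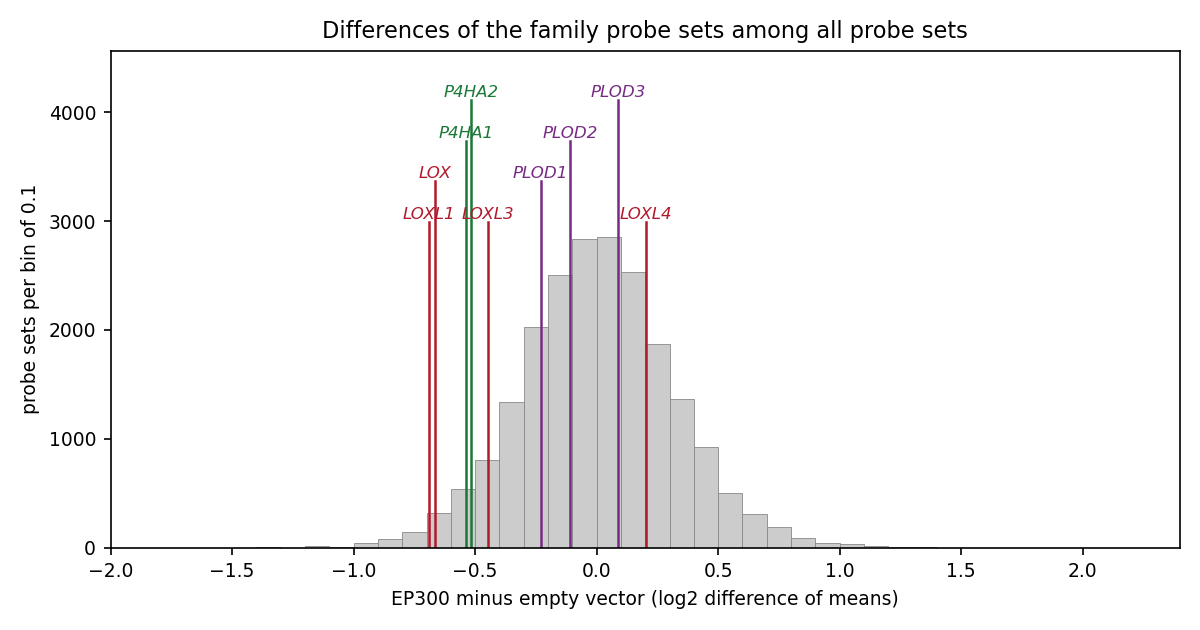
Histogram of the log2 difference, EP300 minus empty vector, over all 21448 probe sets in bins of 0.1, with vertical lines at the 9 members (LOX family in red, P4HA in green, PLOD in purple). LOXL1, LOX, P4HA1 and P4HA2 stand in the left flank between -0.69 and -0.52, where 5.42% of all probe sets are at -0.5 or lower, and the PLOD genes stand near the centre.

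The arrays of the EP300 group were not alike over these genes. On EP300 replicate 1 all 9 members lay below their own mean over the 6 arrays, on replicate 2 there were 5 and on replicate 3 there were 6. On control arrays 1, 3 and 0 members lay below their own mean (replicates 1, 2 and 3). The median of the 9 centred values was -0.44 on EP300 replicate 1, -0.04 on EP300 replicate 2 and -0.09 on EP300 replicate 3, and 0.16, 0.15 and 0.29 on the control arrays. Without EP300 replicate 1 the median difference over the members was -0.23, and without control replicate 2 it was -0.28.

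**Figure D3:**
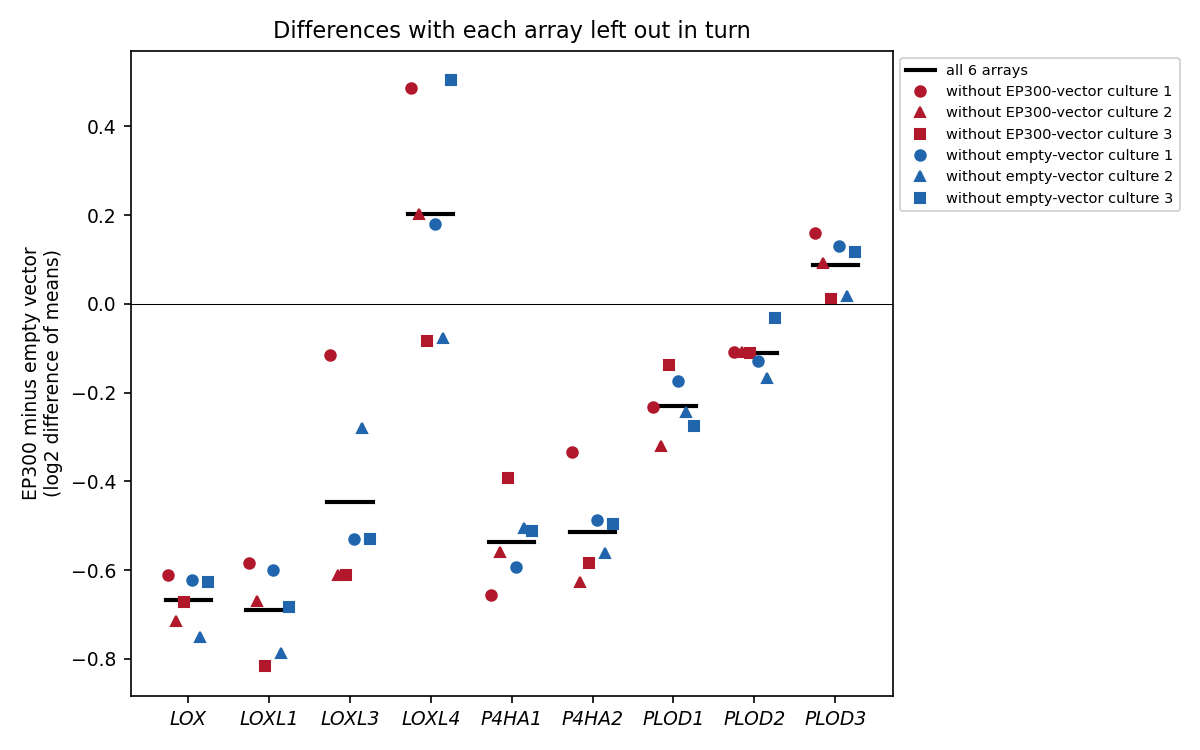
Log2 difference, EP300 minus empty vector, of each member with all 6 arrays (black line) and with each array left out in turn (red, an EP300-vector array; blue, an empty-vector array). LOX and LOXL1 stay between -0.82 and -0.58, P4HA1 and P4HA2 between -0.66 and -0.33, and LOXL4 falls on both sides of 0.

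The closest profiles to that of LOX outside the families were sought among 9247 named, varying probe sets above the median level. They were those of POLR2G, an RNA polymerase II subunit gene, ZNF704, which encodes a zinc finger protein, BTBD7, which encodes a BTB domain protein, PIP5K1A, which encodes a phosphatidylinositol 4-phosphate 5-kinase, and SRSF11, which encodes a splicing factor. Their centred values differed from those of LOX by a root mean square of 0.071 to 0.092 over the 6 arrays, against a median of 0.453 over the probe sets compared. These genes were picked as the nearest, so their place below that median was fixed by the choice. POLR2G read 4.93, 4.95 and 4.87 in EP300 cultures, against 5.73, 5.39 and 5.59 in control cultures, lowest in the same control culture as LOX. Of the members, LOXL1 came closest, with 18 other probe sets nearer to LOX, and P4HA2 followed at 0.15 with 33 nearer. P4HA1 stood at 0.24 with 356 nearer, and PLOD2 at 0.29 with 908.

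The partners of these enzymes were described through 5 lists, and limma called 0 of their genes at an adjusted p of 0.05. The first list held 15 measured genes of collagen folding and further modification (of 16), with 10 lower and 5 higher in EP300 cultures and a median difference of -0.06. Arrays were separated toward lower values for 2 of the 15 and toward higher values for 2, against 5.91% and 6.3% of all probe sets. At an unadjusted limma p below 0.05 there were 1 lower and 3 higher, against 6.52% of all probe sets in either direction. The gene on the lower side was SERPINH1, which encodes the collagen chaperone HSP47. It read 7.68, 8.07 and 7.24 in EP300 cultures, against 8.30, 8.10 and 8.52 in control cultures (difference -0.64 ± 0.26 SE, limma adjusted p = 0.748). The highest EP300 array lay 0.025 below the lowest control array, and without EP300 replicate 3 the difference was -0.43.

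On the higher side stood P3H2, TMEM38B and FKBP14. P3H2, a prolyl 3-hydroxylase that acts mainly on basement membrane collagen, read 14.87, 14.91 and 15.25 in EP300 cultures, against 14.46, 14.26 and 14.35 in control cultures. All EP300 arrays lay above all control arrays, opposite to P4HA1, P4HA2 and P4HB. The difference was 0.66 ± 0.21 SE (limma adjusted p = 0.738), and 0.54 to 0.72 with an array left out. TMEM38B, an endoplasmic reticulum cation channel gene mutated in a form of osteogenesis imperfecta, read 4.98, 5.06 and 5.38 in EP300 cultures, against 3.76, 4.62 and 4.54 in control cultures. Its groups were also separated, at levels near the array median, with a difference of 0.83 ± 0.27 SE (limma adjusted p = 0.739). FKBP14, a peptidyl-prolyl isomerase gene named after its values were seen, differed by 0.61 ± 0.27 SE with overlapping groups (limma adjusted p = 0.765).

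Of the fibrillar collagens, substrates of both enzyme classes, and elastin, a substrate of the lysyl oxidases, 11 of 12 were measured. Of these, 6 were lower and 5 higher, with a median of -0.07. COL5A1 and COL1A2 reached an unadjusted limma p below 0.05, both lower in EP300 cultures, against 3.07% of all probe sets. COL5A1 did so in all 13 alternative settings and COL1A2 in 5, not under quantile normalization or median centring. COL5A1, a chain of the type V collagen that starts fibril assembly, read 10.60, 11.24 and 11.09 in EP300 cultures, against 11.78, 11.66 and 11.83 in control cultures (difference -0.78 ± 0.23 SE, limma adjusted p = 0.735). COL1A2 read 13.72, 13.99 and 13.81 in EP300 cultures, against 14.33, 14.13 and 14.55 in control cultures (difference -0.49 ± 0.22 SE, limma adjusted p = 0.765). Both were separated between the groups, while COL1A1, the other chain of type I collagen, was not: it read 10.75, 11.38 and 10.84 in EP300 cultures, against 11.25, 11.19 and 11.38 in control cultures (-0.29 ± 0.23 SE, limma adjusted p = 0.882). Its difference was -0.17 without EP300 replicate 1 and -0.48 without EP300 replicate 2. ELN, which encodes elastin and is named after its values were seen, was separated with a difference of -0.26 ± 0.20 SE at levels below the array median. In this list 3 of the 11 were separated toward lower values and 0 toward higher, against 5.91% and 6.3% of all probe sets. COL11A2 differed by 0.42 ± 0.32 SE, and by 0.067 without EP300 replicate 3.

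Procollagen processing genes were measured for 8 of 8, with 4 lower, 4 higher, a median of -0.02 and 0 at an unadjusted limma p below 0.05. BMP1, the protease that removes the C-propeptides of collagen and also activates the LOX precursor, read 6.03, 6.80 and 5.29 in EP300 cultures, against 6.71, 6.04 and 6.45 in control cultures. The EP300 arrays spanned the control range on both sides, the difference was -0.36 ± 0.36 SE, and it was 0.012 without EP300 replicate 3. ADAMTS14, an N-propeptidase gene, differed by 0.50 ± 0.26 SE (0.25 without EP300 replicate 2), and TLL2, a relative of BMP1, by -0.23 ± 0.21 SE (-0.13 without EP300 replicate 3), and the groups of both overlapped.

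Copper supply and extracellular scaffolds of LOX were measured for 9 of 9 genes, with a median of 0.02 and 0 at an unadjusted limma p below 0.05. Separation toward lower values was found for 2 of the 9 and toward higher values for 0, against 5.91% and 6.3% of all probe sets. SLC31A1, which encodes the copper importer CTR1, read 10.13, 10.07 and 10.07 in EP300 cultures, against 10.63, 10.45 and 10.31 in control cultures, a separation with a difference of -0.37 ± 0.20 SE (limma adjusted p = 0.806). FN1, encoding fibronectin, which binds LOX, differed by -0.33 ± 0.23 SE (-0.17 without control replicate 3). Its highest EP300 value was 17.764 and its lowest control value 17.765. These lie within 0.001 of each other, so FN1 is separated in name only. FBLN5, encoding fibulin-5, was listed below the lower quartile on 5 arrays and differed by 0.44 ± 0.31 SE (0.079 without EP300 replicate 3).

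Oxygen sensing genes and hypoxia-inducible factors were measured for 8 of 8, with 5 lower, 3 higher, a median of -0.05 and 0 at an unadjusted limma p below 0.05. HIF1A, the oxygen-regulated subunit, read 16.42, 16.42 and 16.40 in EP300 cultures, against 16.44, 16.42 and 16.42 in control cultures. The same value, within 0.001, was listed on 4 of the 6 arrays, and VIM, at 18.60, had 1 value on all 6. Whether the scale is compressed at such levels was not tested, so these values say little about a difference in HIF1A transcript. Its protein, which oxygen controls, was not measured. ARNT, the partner subunit, read 7.21, 5.83 and 6.35 in EP300 cultures, against 7.40, 7.09 and 7.08 in control cultures. Its difference of -0.73 ± 0.33 SE (limma adjusted p = 0.77) was -0.41 without EP300 replicate 2 and -1.10 without EP300 replicate 1. The unadjusted limma p of ARNT was 0.053, and it fell below 0.05 in 7 of the 13 alternative settings. EPAS1, which encodes HIF-2 alpha, differed by -0.46 ± 0.23 SE, and EGLN2, a HIF prolyl hydroxylase gene, by 0.54 ± 0.26 SE (0.32 without control replicate 3), and the groups of both overlapped.

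**Figure D4:**
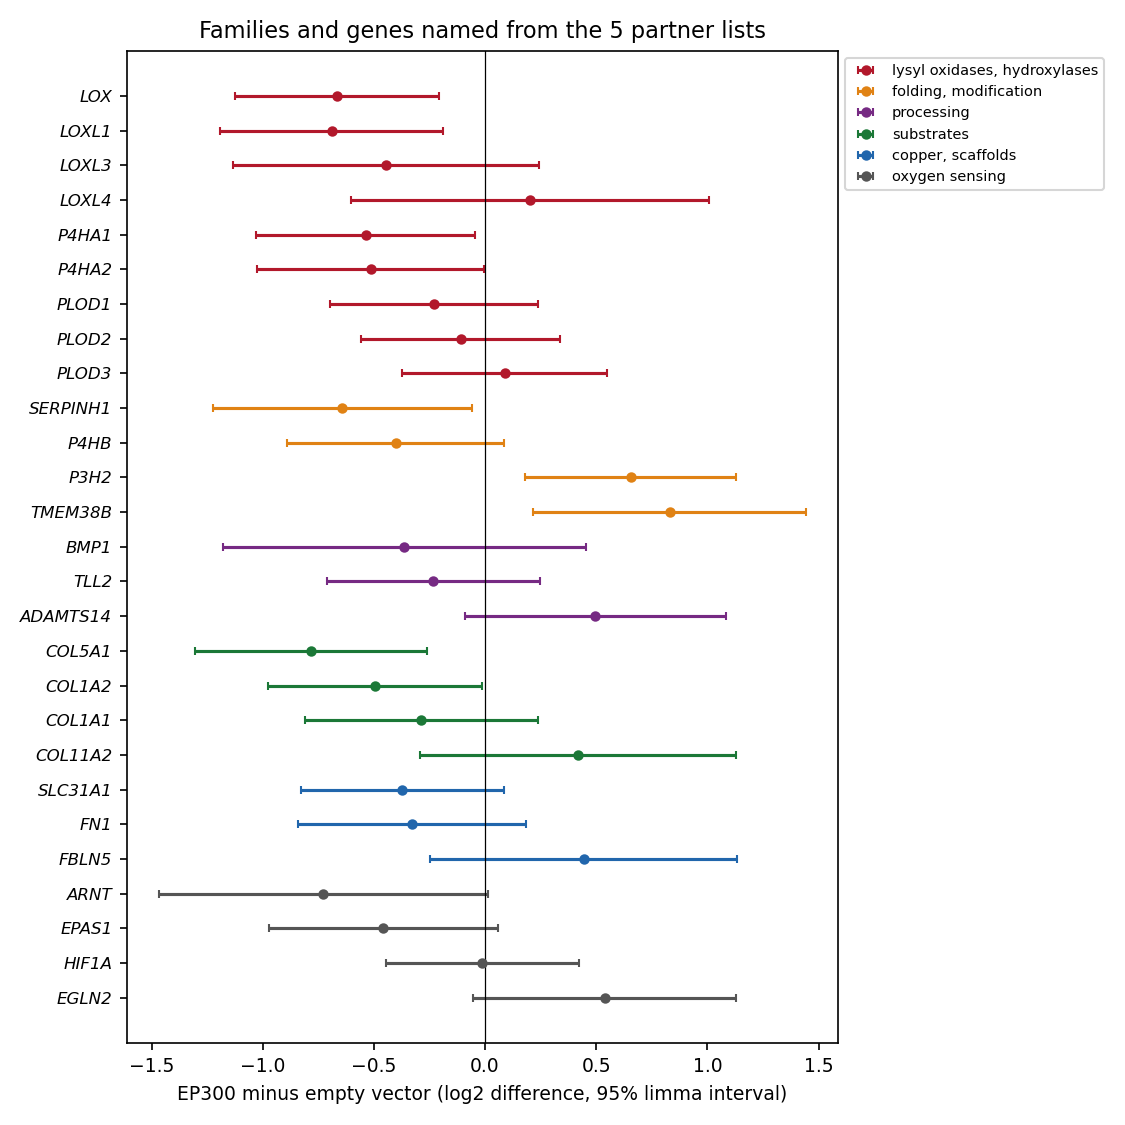
Log2 difference, EP300 minus empty vector, with its 95% limma interval for the 9 members (top, red) and for the genes named by a rule from the 5 partner lists, coloured by list. Intervals that do not reach 0 are unadjusted, and no gene shown passed the adjusted test.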

How the data were processed

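RNA of 6 cultures was measured on Affymetrix whole-transcript arrays (WT PLUS labelling, per the labels' protocols). The authors deposited 1 value for each array and probe set. The authors used Partek 6.6, per the submitters' processing notes, and how background, normalization and genome build were handled is not given in the sources used here. Deposited values were taken as log2, a scale inferred from their range and not stated. Of 21448 probe sets, 17709 had 1 gene symbol, 0 several and 3739 none in the platform annotation.

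EP300 minus control was fitted on all probe sets with limma 3.58.1 (lmFit, eBayes) in R 4.3.3, with no filter or block, Benjamini-Hochberg adjustment over all 21448 and a threshold of 0.05. In 20 simulations of this comparison on 21448 probe sets, the fit recovered 9.06% of changes of 1 (log2) and 86.9% of changes of 2. Each simulation changed 200 probe sets by 1, 2 or 3, with variances drawn from the distribution that limma fitted. The shares recovered depend on these settings, and changes as small as those of the members were not simulated. Named genes are the members, the 3 genes with the smallest p of each of 5 lists, P4HB, COL1A1, COL1A2 and HIF1A, and the 5 genes most like LOX in profile. For list genes the probe set with the highest mean was used. Members and lists were chosen with earlier results of these data known. The number of arrays limits the precision.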

Additional observations from a re-analysis of the deposited data

How the results depend on the processing

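The 13 alternatives were quantile normalization, a replicate block, median centring, robust estimation with a variance trend, restriction to probe sets above the median level, to varying ones or to 1 for each gene, and leaving out each array. The members called stayed at 0 in all 13, as did the list genes called. Probe sets called were 4 with the variance trend and 0 otherwise. Counts at an unadjusted p below 0.05, chosen after seeing the data, were 848 probe sets above the median level, against 1399 of all. The 848 come from a smaller total, so the lower count is not a lower share. For members that count was 2 with the replicate block, and 2 to 3 without an array. Without an array, the members' median ran from -0.56 to -0.23, LOXL4 from -0.083 to 0.50 and BMP1 from -0.74 to 0.012. The other 114 of 116 member differences and 294 of 295 differences of other named genes kept their direction and stayed on the same side of the threshold. LOXL4 was not above the median level and has no value there. Same-numbered arrays had deviations correlated at -0.0015, -0.0053 and -0.0089 over all probe sets. No pairing by number was seen, but such a correlation cannot exclude a pairing that acts on few probe sets. The cause of these shifts was not tested. Signal over background was not available to limit low probe sets.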
